A study of Arabidopsis thaliana with 27 samples.

Results

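The mitochondria-encoded genes are the genes of the mitochondrial genome that the platform annotation of the array pairs with a probe set of their own. They were picked by their lower-case symbols (nad, cox, ccb and orf), by the symbols of 2 named probe sets (nad4L and ccb382), and, for matR, through its place on the mitochondrial chromosome in the RefSeq gene table; plastid genes were left out. Of 13356 genes with a probe set listed for 1 gene, 16 were members, on 23 probe sets. The gene table holds 32 different protein-coding symbols on that chromosome, so the members are a part of the genome and not all of it. A further 12 probe sets list a mitochondrial gene together with another gene, in 11 cases one on chromosome 2, and they stand for no member here.

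The leaves came from plants of Arabidopsis thaliana, either Col-0 wild type (WT) or the G-protein null line gpa1-4/agb1-2, called the mutant here, which carries alleles in GPA1 and AGB1, the genes of a G-protein alpha and beta subunit. All were 4 to 5 weeks old, were grown at 9 h of light and 15 h of dark and stood in 4 chambers at 24 degrees C, with either clean air (5 ppb ozone) or ozone at 125 ppb during 7 h of every day. Mid-whorl leaves were sampled at 3 h or at 2 d, which gave 8 groups and 27 arrays: 3 arrays in each group at 3 h and 4 in each at 2 d, except that clean-air mutant leaves at 2 d had 3. The labels call the replicates biological and do not say which plants made up an array or which chamber they stood in, so p-values measure the spread between these arrays. GPA1 and AGB1 had no named probe set, so the mutant was not checked through its targeted genes.

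Plant mitochondria keep a small genome whose proteins are mostly core subunits of the respiratory chain, parts of the machinery that attaches haem to c-type cytochromes, and ribosomal proteins. Most other subunits of the same complexes are made from nuclear genes and imported. Several mitochondrial transcripts, among them nad1, nad2 and nad5, are assembled by joining separately transcribed pieces, and adding a poly(A) tail in plant mitochondria marks an RNA for decay. The labelling kit named in the labels amplifies from an oligo(dT) primer, so the arrays read what that primer reaches.

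Of the members, 8 encode subunits of complex I, the NADH dehydrogenase (nad1, nad2, nad4, nad4L, nad5, nad6, nad7 and nad9), and 2 encode catalytic subunits of complex IV, the cytochrome c oxidase (cox1 and cox2). Cytochrome c maturation accounts for 4, named in the annotation by older symbols: ccb206 is ccmB, ccb203 is ccmFN2, ccb382 is ccmFN1 and ccb452 is ccmFC in RefSeq. The others are matR, a maturase thought to act in intron splicing, and orfX (mttB in RefSeq), a membrane protein related to bacterial TatC transport proteins. Values are log2(intensity + 1), changes are differences on that scale with limma's standard error (SE), and SDs are between arrays of a group. A change passed where its adjusted p, from limma with the Benjamini-Hochberg method over all 22746 probe sets, was under 0.05. For a gene with more than 1 probe set, the brightest on average was taken as its value. In bulk leaf RNA, fewer cells or organelles and less RNA in each cannot be told apart.

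Over all probe sets, the correlation between replicate arrays was 0.916 to 0.965, and no 2 arrays were identical. The mesophyll markers that were measured, RCA (lowest 13.85, highest 15.01) and LHCB4.1 (13.77 to 14.86), were bright on every array. The root marker PYK10 ranged from 3.99 to 7.39, EXPA7 from 2.81 to 6.55 and the pollen marker MGH3 from 1.32 to 5.73, while the guard cell marker FAMA ranged from 6.75 to 8.14. These were 2 of 15 mesophyll, 2 of 6 root, 1 of 5 flower and pollen and 1 of 6 guard cell genes listed. No listed vascular, epidermal or senescence gene had a named probe set.

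After 2 d of ozone, 3 of the 16 genes stood higher when both genotypes were averaged, and none fell. They were ccb203 and ccb452, both parts of the haem lyase of cytochrome c maturation, and cox2, the subunit of complex IV that takes electrons from cytochrome c. Among all probe sets 5.51% passed as higher and 5.25% as lower in the same comparison. Over the 16 genes the median change was 0.25, with 13 above 0, against a median of −0.06 over all probe sets. The changes ran from −0.22 for nad7 to 1.59 for ccb203.

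ccb203 had the largest change. In wild type at 2 d it stood at 2.83, 3.73, 3.83 and 3.82 in clean air and at 4.98, 4.87, 5.20 and 5.69 in ozone. In the mutant it stood at 3.81, 4.78 and 4.15 in clean air and at 6.32, 5.63, 5.29 and 5.93 in ozone. Every ozone array lay above every clean-air array of its genotype. The change was 1.63 ± 0.358 in wild type (adjusted p = 0.0195, limma), 1.55 ± 0.386 in the mutant (adjusted p = 0.0956) and 1.59 ± 0.263 for their mean (adjusted p = 0.00114). The gene is dim, with a mean of 4.66 over the arrays, so that a filter at a mean of 5 left it untested, and with a pseudocount of 16 in place of 1 the change was 0.94 in wild type and 0.99 for the mean of both genotypes, and both passed. The wild-type call was lost when clean-air array 1 or 2 or ozone array 2 or 3 was left out, with adjusted p of 0.00599 to 0.0677 over its alternatives, while the call for the mean of both genotypes held without any 1 array.

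cox2 stood at 6.68, 6.59, 6.93 and 6.33 in wild-type clean air at 2 d and at 7.75, 7.66, 7.10 and 7.30 in ozone, with no overlap. In the mutant it stood at 6.03, 6.82 and 7.37 in clean air and at 7.82, 7.74, 7.02 and 8.54 in ozone, where ozone array 3 lay below clean-air array 3. The mean change was 0.93 ± 0.200 (adjusted p = 0.00565, limma). Within a genotype it was 0.82 ± 0.271 in wild type (adjusted p = 0.0876) and 1.04 ± 0.293 in the mutant (adjusted p = 0.131), neither of which passed.

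ccb452 stood at 8.57, 8.70, 8.29 and 8.81 in ozone-treated mutant leaves at 2 d, above 7.46, 7.53 and 8.19 in clean air. In wild type the ozone arrays at 8.62, 8.29, 7.26 and 8.31 overlapped the clean-air arrays at 8.08, 7.92, 7.61 and 7.95, since ozone array 3 was the lowest of all 8. The mean change of 0.55 ± 0.175 passed (adjusted p = 0.0474, limma), with 0.86 ± 0.257 in the mutant and 0.23 ± 0.238 in wild type, neither past the threshold. Of 23 alternatives 14 lost this call, with adjusted p between 0.007 and 0.134: the fit of each time alone, the replicate block, and leaving out any 1 array at 2 d other than array 3 of wild-type ozone, mutant clean air or mutant ozone.

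**Figure D1:**
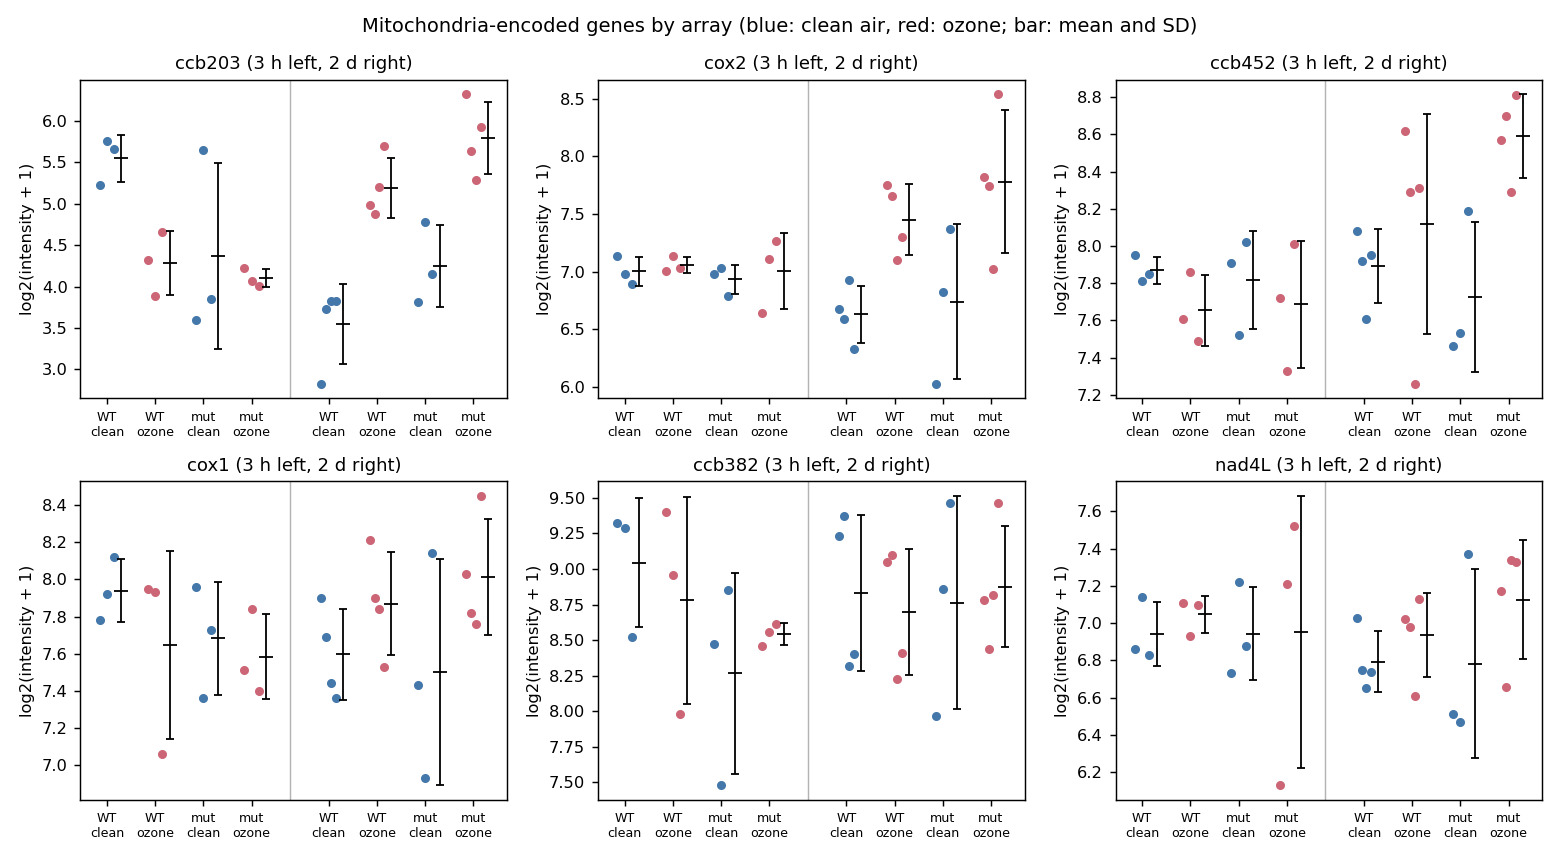
Values of 6 mitochondria-encoded genes on each array, as log2(intensity + 1) on the vertical axis, for wild type (WT) and mutant (mut) in clean air (blue) and ozone (red), 3 h to the left and 2 d to the right of the grey line; black bars give the mean and SD. At 2 d the ozone arrays of ccb203 lie between 4.87 and 6.32, above all clean-air arrays of the same genotype, while those of ccb382 lie among them.

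The other 2 cytochrome c maturation genes did not pass. ccb382 and ccb203 encode the 2 pieces into which the ccmFN protein is split in Arabidopsis and its relatives, and their changes were unlike in size. ccb382 stood at 9.23, 9.37, 8.32 and 8.40 in wild-type clean air at 2 d and at 9.05, 9.10, 8.23 and 8.41 in ozone. Its mean change was −0.01 ± 0.275, with the groups overlapping in both genotypes. ccb206, a membrane subunit of the transporter of the same pathway, had a change of 0.25 ± 0.140 (adjusted p = 0.281, limma). Whether members differ from each other in their response was not tested.

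cox1, which carries the site where oxygen is reduced in complex IV, had a mean change of 0.39 ± 0.183 at 2 d (adjusted p = 0.181, limma). Its values in mutant clean air at 2 d were spread wide, at 7.43, 6.93 and 8.14. Array 3 of that group was the highest of its group for cox1 and also, among others, for cox2, ccb452, ccb382, nad4L and nad9. The median of the 16 genes on the arrays of that group ran from 6.55 to 7.37, with an SD of 0.413, against 0.096 among the wild-type clean-air arrays at 2 d. Without array 3 of mutant clean air, cox1 rose by 0.55 (adjusted p = 0.0471, limma; 0.0339 to 0.449 over its 23 alternatives), and 4 genes passed in all.

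None of the 8 complex I genes passed at 2 d on the probe sets that stood for them, in any of the ozone comparisons. Their mean changes ran from −0.22 for nad7 to 0.80 for nad2, with a median of 0.19 and 6 of 8 above 0. Over all probe sets 5.51% passed as higher and 5.25% as lower for the mean of both genotypes at 2 d. In wild type these shares were 1.63% and 1.82%, and in the mutant 0.189% passed in either direction. nad7 and nad9 encode subunits of the arm that reaches into the matrix, and they lay on opposite sides of 0, at −0.22 ± 0.177 and 0.32 ± 0.195. nad2, a membrane subunit, was dim and scattered: its wild-type ozone arrays stood at 4.34, 4.61, 4.68 and 1.26, so that its 0.80 ± 0.616 had the widest error of any member. nad4L, a small membrane subunit, stood at 7.03, 6.75, 6.65 and 6.74 in wild-type clean air and at 7.02, 6.98, 6.61 and 7.13 in ozone. Its mean change was 0.24 ± 0.184 (adjusted p = 0.446), with overlapping groups. For the membrane subunits nad4 and nad6 the changes were −0.07 ± 0.215 and 0.14 ± 0.193. Neither matR, which had a mean of 2.71 and was the dimmest member, nor orfX passed, with mean changes of 0.18 ± 0.253 and 0.11 ± 0.117.

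**Figure D2:**
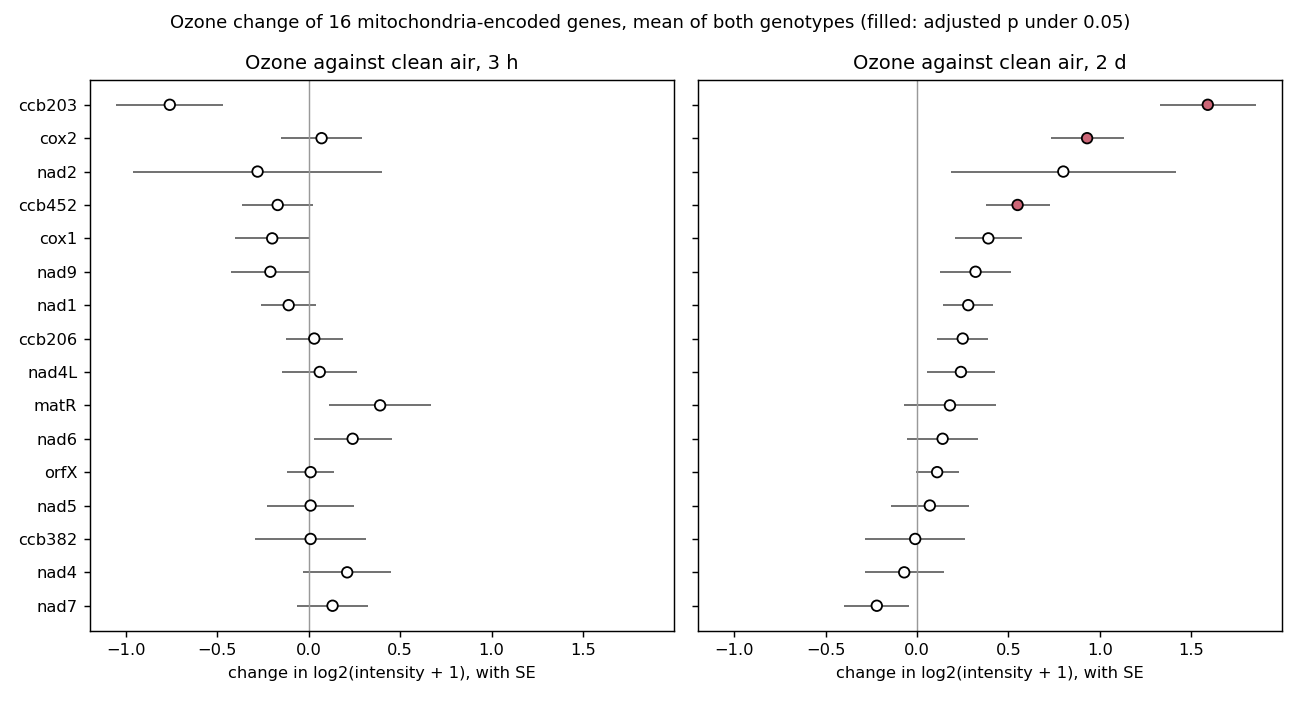
Change between ozone and clean air, averaged over both genotypes, for the 16 mitochondria-encoded genes (rows) at 3 h and 2 d, on the log2(intensity + 1) scale with the SE; filled points passed at an adjusted p under 0.05. At 2 d ccb203, cox2 and ccb452 are filled at 1.59, 0.93 and 0.55, and at 3 h no point is filled.

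The probe sets of nad1, and those of nad5, disagreed. nad1, a membrane subunit of complex I next to its matrix arm, has 7 probe sets. At 2 d, 3 of the 7 rose for the mean of both genotypes, where 5.51% of all probe sets passed as higher. The rises were 1.08 ± 0.232 for 257323_at, 0.98 ± 0.175 for 257324_at and 1.23 ± 0.220 for 257325_at (adjusted p = 0.00599, 0.00182 and 0.00179, limma). The brightest, 257322_at, which was taken for the gene, had a change of 0.28 ± 0.136 (adjusted p = 0.202) and 257321_at one of 0.36 ± 0.142 (adjusted p = 0.112). The remaining 257327_at and 257329_at had changes of 0.17 ± 0.397 and 0.19 ± 0.310. Which piece of the transcript each probe set reads was not analysed here.

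On 257325_at the wild-type arrays at 2 d stood at 5.79, 6.24, 5.65 and 6.41 in clean air and at 7.69, 7.47, 6.90 and 6.75 in ozone. The mutant arrays stood at 6.44, 5.53 and 6.65 and at 7.41, 7.76, 7.34 and 7.41. Groups did not overlap in either genotype. On 257322_at, in contrast, the wild-type ozone arrays at 7.85, 7.61, 6.78 and 7.12 enclosed all clean-air arrays, which stood at 7.09, 7.42, 7.08 and 7.14. In wild type alone 257324_at and 257325_at rose, by 1.0 ± 0.238 and 1.18 ± 0.298 (adjusted p = 0.0283 and 0.0345, limma), where 1.63% of all probe sets passed as higher. Both of these calls were lost without clean-air array 1, 2 or 3 or ozone array 1, 2 or 3 (adjusted p up to 0.0871 and 0.105, from 0.00629 and 0.0103), while the 3 rises for the mean of both genotypes held under all 23 alternatives. The wild-type call of 257324_at was also lost with each time fitted alone. In the mutant alone none of the 7 passed, beside 0.189% of all probe sets, with the same 3 probe sets at 0.95 to 1.27.

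nad5, a membrane subunit at the far end of complex I, has 2 probe sets that also parted. 257337_at rose by 1.20 ± 0.330 for the mean of both genotypes (adjusted p = 0.0239, limma), and 257338_s_at, which was taken for the gene, had a change of 0.07 ± 0.214 (adjusted p = 0.879). Their mean signals were close, at 5.61 and 5.68, so the choice between them rested on a small difference. The rise on 257337_at came with 4.08, 3.96 and 5.68 in mutant clean air against 6.63, 6.25, 6.42 and 6.36 in mutant ozone. In wild type its groups overlapped, at 5.92, 5.34, 5.21 and 4.02 against 5.70, 5.79, 5.97 and 5.23. The ozone change was 1.84 ± 0.485 in the mutant (adjusted p = 0.116) and 0.55 ± 0.449 in wild type, and their difference of 1.29 ± 0.660 did not pass. Without mutant clean-air array 1 or 2 the rise for the mean of both genotypes was lost (adjusted p of 0.00561 to 0.0775 over 23 alternatives). With all 23 probe sets counted, 7 passed at 2 d for the mean of both genotypes, all as rises, with a median change of 0.28. In the same comparison 5.51% of all probe sets passed as higher and 5.25% as lower. The 7 include several probe sets of nad1, so they are not 7 separate genes.

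**Figure D3:**
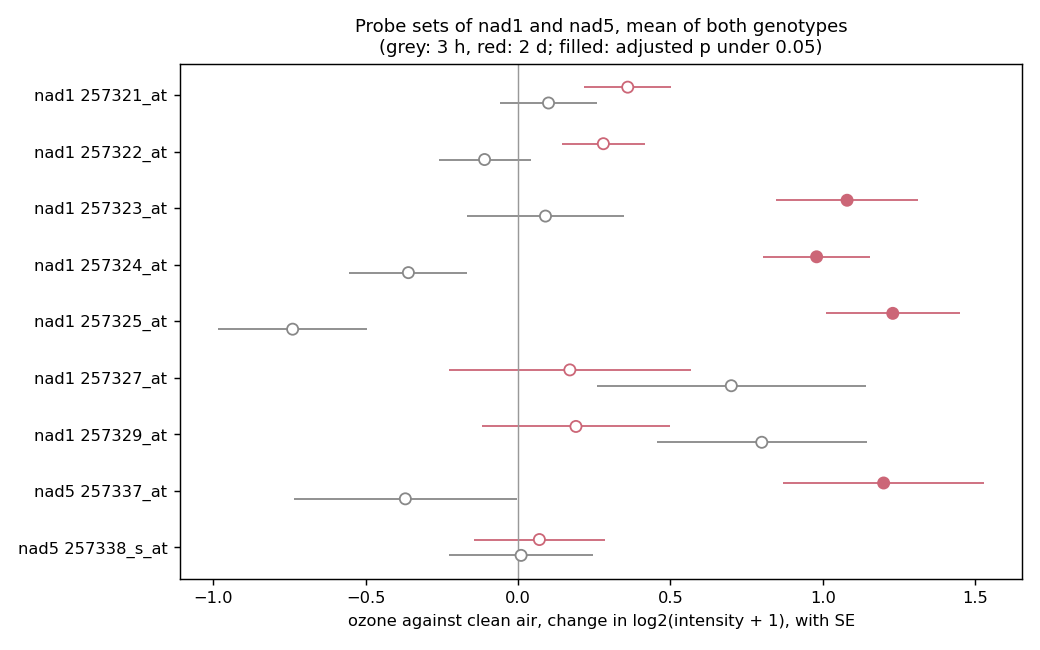
Change between ozone and clean air, averaged over both genotypes, for each of the 7 probe sets of nad1 and 2 of nad5 (rows), on the log2(intensity + 1) scale with the SE, at 3 h (grey) and 2 d (red); filled points passed at an adjusted p under 0.05. The filled points at 2 d lie between 0.98 and 1.23, and the other probe sets of the same genes lie between 0.07 and 0.36.

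Of the 12 shared probe sets, 3 rose at 2 d for the mean of both genotypes, by 0.71 ± 0.155, 0.78 ± 0.185 and 0.79 ± 0.205 (adjusted p = 0.00622, 0.0101 and 0.0167, limma), and the last was lost without mutant clean-air array 1 or 2 (adjusted p of 0.00583 to 0.0565 over 23 alternatives). The first lists rps3 and rpl16, neighbours by symbol on the mitochondrial chromosome in RefSeq, and no chromosome 2 gene. Its rise held under all 23 alternatives. The others pair atp9 and rps12 with chromosome 2 genes. The median of the 12 was 0.27. Part of chromosome 2 carries a copy of mitochondrial DNA, and 20 genes of that stretch had a probe set listed for 1 gene. Their median change was 0.08, with 11 of 20 above 0, and AT2G07678 alone passed, with a rise of 1.57 ± 0.318 (adjusted p = 0.004, limma). Beside it 5.51% of all probe sets passed as higher and 5.25% as lower. Of the members, 5 stand on probe sets marked as matching several transcripts: ccb452, matR, nad5, nad6 and orfX. Most of the 20 chromosome 2 genes, AT2G07678 among them, also stand on probe sets marked in this way. How much of the signal of these members and chromosome 2 genes came from copies elsewhere was not tested.

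Within wild type at 2 d, ccb203 was the 1 member of 16 that passed, as a rise, beside 1.63% of all probe sets as higher and 1.82% as lower. The median change of the 16 was 0.15, with 13 above 0, and −0.09 over all probe sets; it was 0.07 without ozone array 1 or 2 and 0.29 without ozone array 3. In the mutant none passed, beside 0.189% of all probe sets, and 3 members had an unadjusted p under 0.05, beside 2801 of all 22746 probe sets. There the median was 0.31, with 15 of 16 above 0, and nad7 at −0.43 ± 0.259 was the exception; without clean-air array 3 the median was 0.48. The 2 genotypes share no arrays in these comparisons, but the difference between them passed for no member and for 0% of all probe sets (limma, Benjamini-Hochberg; 646 probe sets and no member had an unadjusted p under 0.05). Its largest values were −0.69 ± 1.23 for nad2 and 0.63 ± 0.351 for ccb452, and the median difference was 0.17, against 0.08 over all probe sets. Single arrays moved this value: without mutant clean-air array 1, 2 or 3 it was −0.02, 0.05 or 0.39, without wild-type ozone array 3 it was 0.08 and without mutant ozone array 4 it was 0.11.

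After 3 h of ozone no member passed, in wild type beside 1.50% of all probe sets, in the mutant beside 0.651% and for their mean beside 6.19%. With an unadjusted p under 0.05 there were 2, 0 and 1 members, beside 3492, 2324 and 4753 of all 22746 probe sets. The medians were −0.02, −0.02 and 0.01, with 6, 8 and 10 of 16 above 0. ccb203 stood lower in wild-type ozone, at 4.32, 3.89 and 4.66 against 5.22, 5.76 and 5.66 in clean air, without overlap. That change of −1.26 ± 0.413 did not pass (adjusted p = 0.131, limma). In the mutant clean-air array 2, at 5.65, stood far above arrays 1 and 3, at 3.60 and 3.85, and the change was −0.26 ± 0.413. matR had its highest value of all, 4.85, on wild-type ozone array 1, and its other wild-type ozone arrays were at 2.79 and 3.20. At 3 h the difference in ozone change between the genotypes passed for 0 members, none with an unadjusted p under 0.05, and for 0% of all probe sets (limma; 627 at an unadjusted p under 0.05).

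The ozone change at 2 d minus that at 3 h, averaged over both genotypes, passed for ccb203 alone, at 2.35 ± 0.393 (adjusted p = 0.00192, limma). Beside it 4.35% of all probe sets passed as higher and 3.05% as lower. With a pseudocount of 16 the value was 1.52 and still passed. cox2 at 0.87 ± 0.298 (adjusted p = 0.0798) and ccb452 at 0.72 ± 0.262 (adjusted p = 0.0974) did not pass. Among the other probe sets of nad1, 257324_at and 257325_at passed, at 1.34 ± 0.261 and 1.97 ± 0.328. The median over the 16 genes was 0.20, with 11 above 0, and −0.07 over all probe sets, and it was 0.32 without mutant clean-air array 3 of 2 d.

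Clean-air leaves also differed between the 2 sampling times. In wild type ccb203 fell by 2.00 on the log2 scale from 3 h to 2 d, with an SE of 0.386 (adjusted p = 0.00166, limma). It went from 5.22, 5.76 and 5.66 to 2.83, 3.73, 3.83 and 3.82, with no overlap, and with a pseudocount of 16 the change was −1.20. No other member passed, beside 4.57% of all probe sets as higher and 5.43% as lower. Of the 16 genes 14 had a change below 0, with a median of −0.27 against −0.10 over all probe sets. In the mutant no member passed, beside 2.39% as higher and 3.22% as lower; ccb203 was at −0.12 ± 0.413 and the median was −0.10, which became 0.07, 0.03 or −0.26 without array 1, 2 or 3 of 2 d and −0.04 without array 1 of 3 h. The rise of ccb203 with ozone in wild type at 2 d was measured against clean-air arrays that were themselves below those of 3 h. The labels do not give the time of day at sampling, and of 12 clock genes listed 1 was measured: GI had a change of 0.16 ± 0.332 in wild-type and 1.02 ± 0.355 in mutant clean air between the times, neither past the threshold. The part of time of day in these values was not tested.

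Between mutant and wild type no member passed in any of the 4 comparisons under the same air and time. Beside that, 0.0132% of all probe sets passed in clean air at 3 h, 0.0176% in ozone at 3 h, 0.0132% in clean air at 2 d and 0.00879% in ozone at 2 d. With an unadjusted p under 0.05 there were 3, 1, 0 and 1 members, beside 865, 1271, 612 and 788 of all 22746 probe sets. The median differences, mutant minus wild type, were −0.06, −0.08, 0.12 and 0.20 in that order, against −0.05, −0.05, −0.04 and 0.05 over all probe sets. The median in ozone at 3 h was 0.03 without wild-type array 1, and that in clean air at 2 d was −0.10 without mutant array 3 and 0.22 without mutant array 2, so neither kept its direction. For nad9 in ozone at 2 d the mutant arrays at 7.99, 7.57, 7.51 and 7.62 all lay above the wild-type arrays at 7.25, 7.35, 6.54 and 7.41. That difference of 0.53 ± 0.266 did not pass.

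Among the nuclear-encoded partners of the same complexes, most had a change above 0 at 2 d. Of 28 measured nuclear genes for complexes I to IV, cytochrome c and ATP synthase, 6 rose for the mean of both genotypes and none fell, with a median change of 0.28 and 25 above 0. Over all probe sets 5.51% passed as higher and 5.25% as lower in that comparison, with a median of −0.06. For complex IV 3 of 7 measured genes rose: COX5C-3 by 1.03 ± 0.175, COX6A by 0.48 ± 0.122 and COX5C-1 by 0.38 ± 0.118 (adjusted p = 0.00134, 0.0161 and 0.0428, limma), all small structural subunits of the complex that cox2 belongs to. For complex III and cytochrome c 2 of 9 rose: QCR7-2, a small subunit, by 1.18 ± 0.343 and MPPALPHA-1, a core subunit that also processes imported proteins, by 0.51 ± 0.112 (adjusted p = 0.0304 and 0.00644). All 9 of these and all 7 of complex IV were above 0. The count of 6 was 3 without mutant clean-air array 1 or 2 and 10 to 13 with the larger pseudocount, the filter on low values, an intensity trend or array weights. Of the others, none of 6 complex I and 4 complex II genes passed and 1 of 2 ATP synthase genes, ATPE, rose by 0.37 ± 0.107 (adjusted p = 0.0287). In clean air from 3 h to 2 d, 5 of the 28 fell in wild type, beside 5.43% of all probe sets as lower. Among them CYTC-2, a cytochrome c, fell by 1.53 on the log2 scale.

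Of 29 listed nuclear genes for expression of the mitochondrial genome 7 were measured, and none passed at 2 d for the mean of both genotypes, with a median of 0.06. Beside that, 5.51% of all probe sets passed as higher and 5.25% as lower. CCMH, a nuclear-encoded partner of the haem lyase, had a change of 0.06 ± 0.172. RPOTMP, an organellar RNA polymerase, and MTPNPASE, which trims and degrades mitochondrial RNA, were 2 of the 7 that passed for the ozone change at 2 d minus that at 3 h, at 1.70 ± 0.477 and 1.25 ± 0.355 (adjusted p = 0.033 and 0.0337, limma), calls that 11 and 13 of 33 left-out arrays or settings ended. For that change 4.35% of all probe sets passed as higher and 3.05% as lower. Of 27 listed genes for alternative respiration and mitochondrial stress 8 were measured, which did not include the alternative oxidases. At 2 d NDB2, an external NAD(P)H dehydrogenase, rose by 1.50 ± 0.452 and NDB1, a related enzyme, fell by 0.46 on the log2 scale (adjusted p = 0.0363 and 0.0292, limma), and the median of the 8 was −0.09. These calls were lost under 10 and 6 of 23 alternatives.

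The plastid-encoded genes, those of the other organellar genome, had changes below 0. Of 69 such genes 32 fell and none rose at 2 d for the mean of both genotypes, and the median was −0.58 with all 69 below 0. Beside them 5.25% of all probe sets passed as lower, with a median of −0.06 over all. In wild type 20 of the 69 fell, with a median of −0.80, and in the mutant none passed, with a median of −0.37. Over all probe sets 1.82% passed as lower in wild type, but only 0.189% passed in either direction in the mutant. The difference in ozone change between the genotypes at 2 d passed for 0% of all probe sets, so these counts do not show a genotype difference. The count of 32 was 17 to 21 without wild-type clean-air array 1 or array 1 of either mutant group, and the 20 in wild type was 0 to 12 without any 1 clean-air array or ozone array 2 or 3, and 38 with array weights. On single arrays the median of the 16 mitochondria-encoded genes had group means of 6.87 ± 0.096 in wild-type clean air and 7.06 ± 0.265 in wild-type ozone at 2 d (SD, n = 4 each). In the mutant it was 6.93 ± 0.413 in clean air (SD, n = 3) and 7.37 ± 0.143 in ozone (SD, n = 4). The same median over the plastid genes was 11.82 ± 0.0927 and 11.16 ± 0.368 in wild type and 11.73 ± 0.194 and 11.37 ± 0.324 in the mutant. No test of the difference between the lists was made.

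**Figure D4:**
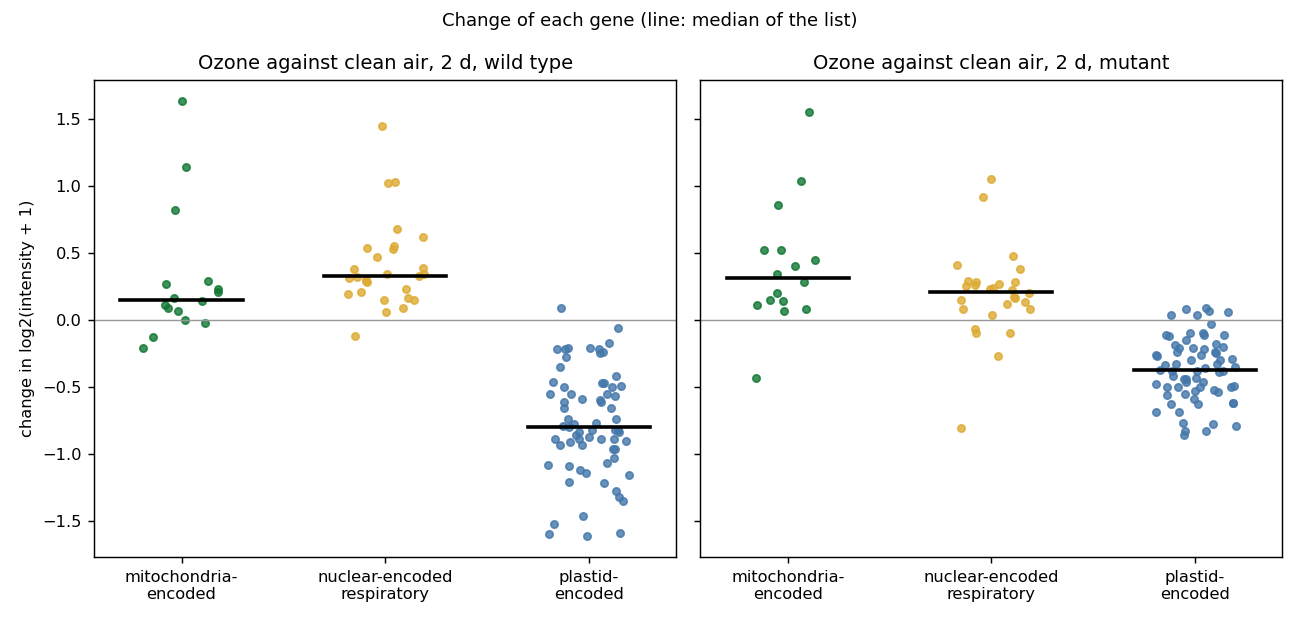
Change between ozone and clean air at 2 d in wild type and in the mutant, on the log2(intensity + 1) scale, with 1 point for each of the 16 mitochondria-encoded, 28 nuclear-encoded respiratory and 69 plastid-encoded genes and a line at the median of each list. The mitochondrial medians are 0.15 and 0.31, and the plastid medians are −0.80 and −0.37.

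Some members stand next to each other on the mitochondrial chromosome, and whether such neighbours differ was not tested. In the gene order of RefSeq, cox2 and ccb206 stand next to each other, and at 2 d their mean changes were 0.93 ± 0.200 and 0.25 ± 0.140. nad1 is followed by cox1, at 0.28 ± 0.136 and 0.39 ± 0.183, and nad2 by nad6, at 0.80 ± 0.616 and 0.14 ± 0.193. For nad1, nad2 and nad5, joined from separately transcribed pieces, the order gives a single place per gene. It does not locate the piece that a probe set reads. nad4 and orfX, also adjacent, were at −0.07 ± 0.215 and 0.11 ± 0.117. On its other side nad4 stands next to ccb452, which passed as a rise. The other adjacent members are matR and nad5, and nad5 and nad7, and none of these passed on the probe sets that stood for them.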

How the data were processed

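Leaf RNA was measured on 27 Affymetrix ATH1 arrays in 8 groups. The deposited values are linear intensities, 1 for each probe set on each array, and per the submitters' processing notes the authors used Affymetrix Expression Console and RMA. RMA usually gives log2 values and the deposited values are linear, so how they were scaled is not settled here. Trimmed means of the arrays were 495.9 to 496.8 and medians 153.5 to 182. From these, log2(intensity + 1) was computed with no filter and no further normalization. A linear model with a mean for each of the 8 groups was fitted in limma 3.58.1 (R 4.3.3) over all probe sets, with 19 residual and 2.53 prior degrees of freedom and 15 contrasts. The code was also run on simulated data with shifts added to probe sets above a mean of 5, which leaves out ccb203. No result here rests on that run. P-values are 2-sided, adjusted by Benjamini-Hochberg within a contrast. The number of arrays limits the precision: the median SE of a change was 0.338 for ozone in 1 genotype at 3 h and 0.216 for the mean of both at 2 d.

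Of the probe sets 13513 were listed with 1 gene, 503 with several, and 8730 are unnamed here. The RefSeq table of TAIR10.1 gave names and gene order only, and members were matched to it by symbol. The members, lists and rule for named genes were chosen with earlier results of these data known. By that rule the text names every member that passed, and per role the members with the largest changes in each comparison, nad4L and ccb382 always, and of other lists up to 4 genes that passed; the other probe sets of nad1 and nad5, nad9 in ozone, and the genes named for adjacency or as markers were taken after their values were seen. Replicate numbers were checked for pairing by correlating deviations from group means: every same-numbered pair was above 0.1 only between wild-type and mutant ozone arrays at 2 d (0.102, 0.142, 0.116 and 0.17), and the numbers are not tied to a batch in the labels. There were 11 kinds of alternative, including leaving out each array.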

Additional observations from a re-analysis of the deposited data

Results flagged for a closer look

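Single arrays of a group of 4 stood apart from the other 3 by Dixon's ratio at the 95% level for 5 genes, in 51 groups of values tested, and chance flags about 1 in 20. They were ccb203 at 2.83 on wild-type clean-air array 1 at 2 d, nad2 at 1.26 on wild-type ozone array 4, matR at 3.47 and nad5 (257338_s_at) at 5.57 on mutant ozone array 1, and nad1 (257322_at) at 7.45 on mutant ozone array 3. Without the ccb203 array the wild-type ozone call of that gene at 2 d was lost, while the rise for the mean of both genotypes held. The ozone change of ccb203 differed between the sampling times, by 2.35 on the log2 scale for 2 d minus 3 h.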

How the results depend on the processing

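The median change of the 16 genes kept its sign under every alternative run for ozone at 2 d in wild type, in the mutant and for their mean (0.07 to 0.29, 0.21 to 0.48 and 0.18 to 0.33), for the change between times (0.14 to 0.32), for clean-air wild type (−0.32 to −0.14) and for mutant against wild type in ozone at 2 d (0.14 to 0.28). The other medians reached or crossed 0 under some alternative; for the 2 d genotype difference in ozone change leaving out 1 array gave −0.02 to 0.39, for mutant against wild type in clean air at 2 d −0.10 to 0.22 and in ozone at 3 h −0.16 to 0.03. Counts of members that passed changed as follows. With array weights they were 2 for ozone in wild type at 3 h, 1 for the mean of both genotypes at 3 h, 2 in wild type, 2 in the mutant and 4 for the mean at 2 d, cox1 being added at 0.50, 3 for the ozone change at 2 d minus that at 3 h, and 1 for mutant against wild type in ozone at 3 h. With genes below a mean of 5 left out, ccb203 was not tested and the counts were 2 for the mean at 2 d, 0 in wild type at 2 d, and 0 for the change between times and for clean-air wild type. With every probe set of 1 gene counted they were 3 in wild type at 2 d, 7 for the mean at 2 d and 3 for the change between times. With shared probe sets added to the 16 genes they were 6 for the mean at 2 d, 3 for the change between times and 1 for clean-air mutant leaves between times. Leaving out 1 array gave 0 to 1 in wild type at 2 d, 0 to 1 in the mutant at 2 d, 1 to 2 for the change between times, 1 to 2 for clean-air wild type and 2 to 4 for the mean at 2 d. With each time fitted alone 2 members passed for the mean at 2 d. With a replicate block 2 members passed for the mean at 2 d, ccb452 being lost, and no other member's call changed in the comparisons within 1 sampling time, the only ones it was run on; for mutant against wild type in ozone at 2 d the block left the count at 0. Apart from the construction of the filter and the added probe sets, the cause of these shifts was not tested. Of the nuclear genes named, COX5C-1 lost its rise under 14 of 23 alternatives, QCR7-2 under 6 and ATPE under 4. With array weights matR passed at 3 h, at 1.71 in wild type and 0.86 for the mean, and ccb203 in wild type at −1.23. The lowest mean signals were those of matR, nad2 and ccb203. Over all probe sets the alternatives other than leaving out 1 array gave 145 to 3329 calls for ozone in wild type at 3 h (342 as reported), 52 to 844 in the mutant at 3 h (148), 15 to 424 in the mutant at 2 d (43), and up to 2191 in wild type at 2 d (784), 4403 for the mean at 3 h (1409) and 3783 for the mean at 2 d (2448), all highest with array weights. With array weights there were also 3486 calls for the change at 2 d minus that at 3 h (1684), 3763 and 2248 between times in wild-type and mutant clean air (2273 and 1276), and 1085 between genotypes in ozone at 3 h (4). Leaving out 1 array gave 59 to 1230 calls for ozone in wild type and 3 to 296 in the mutant at 3 h, 64 to 971 and 0 to 176 at 2 d, and 750 to 2526 and 1378 to 2604 for the means at 3 h and 2 d.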
